A study of Homo sapiens with 2 samples.

Results

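The 9p21 locus genes are 8 genes of the short arm of human chromosome 9 that lie around the tumour suppressor genes CDKN2A and CDKN2B. They were chosen by name, with earlier results of these arrays known, as every probe set whose only gene symbol is CDKN2A, CDKN2B, MTAP, KLHL9, FOCAD, MLLT3, ELAVL2 or MIR31HG. This gave 23 of 54675 probe sets and 8 of 19775 named genes. The study hybridised RNA of 2 samples, both labelled as U87, a human glioblastoma line that is established in culture, to 1 array each. One array is labelled non-target siRNA, a control for transfection, and is called the NT-labelled array below. The other is labelled FOXM1 siRNA, directed against the forkhead transcription factor FOXM1, and is called the FOXM1-labelled array. Both cultures were grown in serum, transfected with the same lipid reagent and collected after 48 hours. The question of the study was which transcripts differ after loss of FOXM1. With 1 array per condition there is no spread between samples and no test, and every difference below describes these 2 arrays as labelled.

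CDKN2A uses separate first exons to encode p16INK4a, which blocks the cyclin D kinases CDK4 and CDK6 upstream of RB, and p14ARF, which holds back MDM2 and so protects p53. CDKN2B, its neighbour, encodes p15INK4b, a further inhibitor of the same kinases, and MTAP encodes the enzyme that recycles methylthioadenosine into methionine. Deletion of this segment from both chromosomes is among the most frequent changes in glioblastoma and often takes MTAP and further neighbours with it. U87 cells are known from earlier work to lack CDKN2A, CDKN2B and MTAP through such a deletion.

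CDKN2A shows why 1 gene symbol can stand for several transcripts here, since it has separate starts for its ARF and p16 transcripts. CDKN2B and MTAP have 1 start each. Probe sets are named by gene, and which CDKN2A transcript each one matches was not settled. The 250 bases upstream of each start are given 5′ to 3′ on the strand of the gene, from RefSeq on GRCh38.p14, with each CpG dinucleotide in capitals, since methylation of CpGs at these starts is a known way in which the genes are silenced in tumours.
CDKN2A, upstream of the ARF start, chr9:21995325-21995574 (minus strand): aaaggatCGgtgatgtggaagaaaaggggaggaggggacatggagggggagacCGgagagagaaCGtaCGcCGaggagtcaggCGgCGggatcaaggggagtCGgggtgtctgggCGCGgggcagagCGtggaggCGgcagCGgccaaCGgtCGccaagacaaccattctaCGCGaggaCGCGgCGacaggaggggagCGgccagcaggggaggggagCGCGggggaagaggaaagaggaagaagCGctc
CDKN2A, upstream of the p16 start, chr9:21974858-21975107 (minus strand): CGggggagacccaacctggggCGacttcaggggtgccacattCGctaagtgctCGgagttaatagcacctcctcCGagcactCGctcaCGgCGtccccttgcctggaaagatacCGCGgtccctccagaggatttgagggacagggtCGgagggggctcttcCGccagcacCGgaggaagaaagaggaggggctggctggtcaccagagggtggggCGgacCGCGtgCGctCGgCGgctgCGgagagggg
CDKN2B, chr9:22009306-22009555 (minus strand): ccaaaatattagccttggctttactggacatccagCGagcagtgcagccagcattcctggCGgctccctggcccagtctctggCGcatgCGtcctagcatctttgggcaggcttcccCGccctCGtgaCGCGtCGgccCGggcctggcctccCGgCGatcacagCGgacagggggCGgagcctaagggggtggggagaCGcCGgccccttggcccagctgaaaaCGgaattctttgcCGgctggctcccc
MTAP, chr9:21802386-21802635 (plus strand): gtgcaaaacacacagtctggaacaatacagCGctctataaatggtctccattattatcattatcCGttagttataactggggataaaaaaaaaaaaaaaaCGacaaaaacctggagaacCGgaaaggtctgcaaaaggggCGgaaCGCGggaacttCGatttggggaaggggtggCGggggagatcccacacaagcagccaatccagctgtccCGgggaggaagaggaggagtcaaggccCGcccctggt

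These windows hold 24, 20, 18 and 11 CpGs, against a median of 11 over 35116 windows of 250 bases upstream of RefSeq starts. All 8 genes had at least 1 window, 14 in all because CDKN2A has 2 and ELAVL2 has 6, and 11 of the 14 lay above that median. None of the 14 held TTTGAA, the letters of the cell cycle homology region at which FOXM1 and MuvB act, or the forkhead core TAAACA, or GCGCGAAA, an E2F site, on either strand. These letters occur in 13.3%, 11.0% and 0.439% of all windows. CCAAT or its reverse, the box bound by NF-Y, was found in 6 of 14, among them MTAP, and in 32.0% of all windows. A match or its absence describes the letters in these windows only.

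Of microRNAs within the 8 genes, MIR491 in FOCAD and MIR31 in MIR31HG were picked by name, and others were not looked for. Mature sequences of these are shown because the host transcripts were measured while the microRNAs were not analysed here. The seed, bases 2 to 8, is in capitals, and the 3 seeds differ. MIR31 lies within MIR31HG and MIR491 within FOCAD by their RefSeq positions.
hsa-miR-31-5p: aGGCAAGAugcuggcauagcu
hsa-miR-491-5p: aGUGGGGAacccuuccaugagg
hsa-miR-491-3p: cUUAUGCAagauucccuucuac

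On the FOXM1-labelled array, 7 of the 8 genes read at least 4-fold lower than on the NT-labelled array. The exception was MIR31HG, which lay near background on both. Of 13865 genes above background on at least 1 array, 15.4% were at least 2-fold lower and 4.08% at least 4-fold lower there. Because the locus was singled out on these arrays, nothing is read from that contrast of shares. A signal counted as above background when it exceeded the 90th percentile of 135 probe sets for olfactory receptor genes, which are silent in most cells. This floor was 60.8 intensity units on the NT-labelled array and 77.7 on the other. Where the dimmer signal lay at or below its floor, the fold was taken against that floor and is a lower bound, written "at least". The only measure of spread was that between probe sets for the same gene. Their log2 differences had an SD of 0.50, pooled over the 5476 genes that had 2 or more probe sets above both floors. This SD comes from the same 2 arrays and does not measure variation between cultures or arrays.

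**Figure D1:**
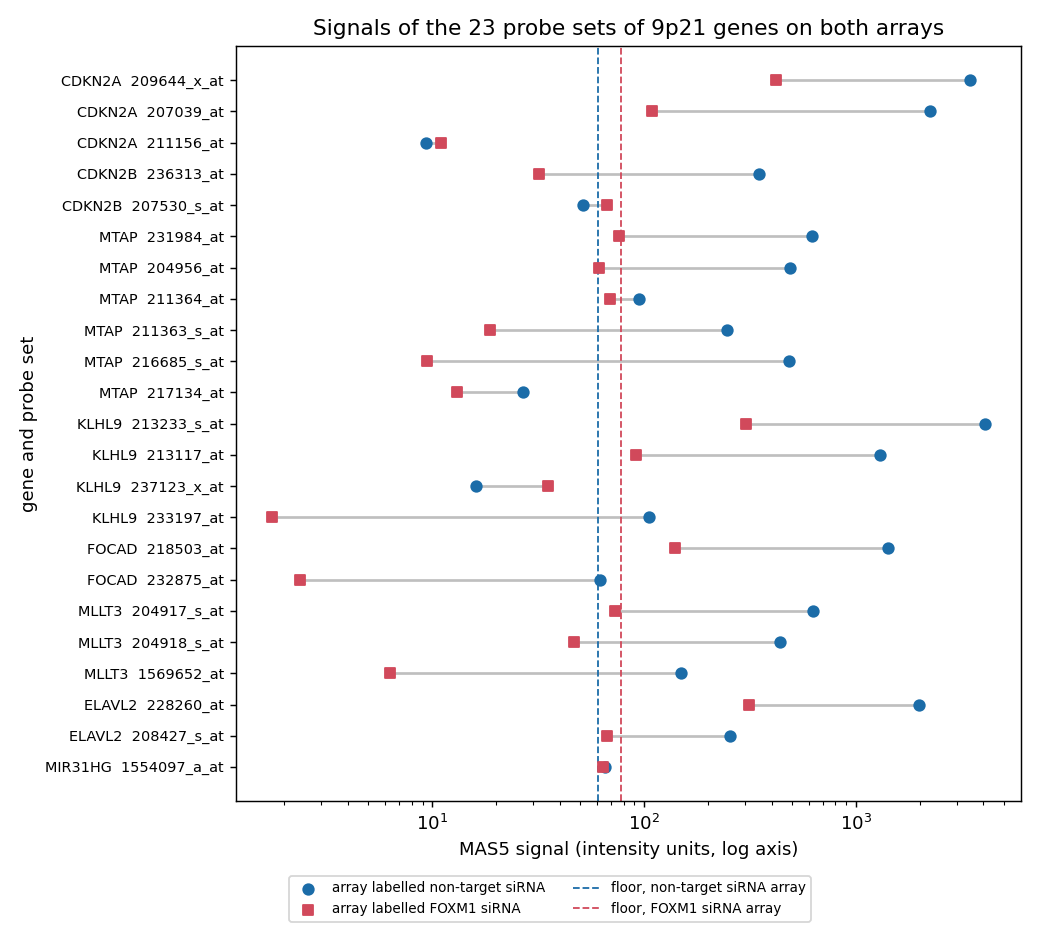
Signals of all 23 probe sets (MAS5 intensity units, log axis) on the NT-labelled array (circles) and the FOXM1-labelled array (squares), 1 array each, with the floor of each array as a dashed line. The 19 probe sets above the floor of the NT-labelled array all have the square to the left of the circle, and 6 squares lie above the floor of their array.

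The CDK inhibitor genes both read lower on the FOXM1-labelled array. CDKN2A read 3467 on the NT-labelled array and 420.7 on the FOXM1-labelled array in its brightest probe set, 209644_x_at, a log2 difference of -3.04. A further probe set of the gene, 207039_at, read 2241 and 109.6, a log2 difference of -4.35. The SD of these 2 probe sets was 0.93, from 2 values only, against the pooled probe set SD of 0.50, and both read lower. Its last probe set, 211156_at, read 9.40 and 11.0, below the floor on both arrays. CDKN2B read 349.8 and 31.8 in 236313_at, at least 4.50-fold lower. Its other probe set, 207530_s_at, read 51.7 and 66.7 and lay below both floors, so that the CDKN2B difference rests on 1 probe set.

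MTAP, the metabolic gene of the locus, was above the floor in 5 of its 6 probe sets on the NT-labelled array and in none on the FOXM1-labelled array. The brightest, 231984_at, read 619.1 and 76.3, at least 7.96-fold lower. Probe set 204956_at read 486.7 and 61.2, at least 6.26-fold lower, and 216685_s_at read 481.8 and 9.46, at least 6.20-fold lower. Probe set 211363_s_at gave 245.3 and 18.8, at least 3.16-fold lower. The dim probe sets 211364_at, at 94.2 and 69.1, and 217134_at, at 26.9 and 13.1, gave a bound of 1.21-fold and no fold. The 4 brighter probe sets of MTAP thus went the same way, and none of them read above background on the FOXM1-labelled array.

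KLHL9 encodes a substrate adaptor of CUL3 ubiquitin ligases that, with KLHL13, acts on Aurora B in mitosis. Its probe set 213233_s_at read 4063 and 301.5, or 13.5-fold lower, and 213117_at read 1302 and 91.3, or 14.3-fold lower. On the log2 scale the SD of these 2 probe sets was 0.06, again from 2 values only. The remaining ones were dim: 233197_at read 105.2 and 1.76, and 237123_x_at read 16.1 and 35.4, below both floors. Of the 4 member genes whose brightest probe set was above both floors, KLHL9 had the lowest log2 difference, at -3.75, but CDKN2A was lower, at -4.35, with the median over probe sets or without _x_at and _s_at probe sets.

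FOCAD encodes focadhesin, a protein that keeps the SKI complex of RNA decay stable. Probe set 218503_at read 1424 and 139.9, a log2 difference of -3.35 or 10.2-fold lower. The other, 232875_at, read 62.0 and 2.38. It lay just above the floor on the NT-labelled array, so no fold can be given for it.

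MLLT3, also called AF9, reads acylated histones and links the super elongation complex and the methyltransferase DOT1L to chromatin. Its 3 probe sets read 625.7, 436.3 and 149.4 on the NT-labelled array. On the FOXM1-labelled array they read 73.1, 46.9 and 6.29, each below the floor. The gene was at least 8.05-fold lower in 204917_s_at, at least 5.61-fold in 204918_s_at and at least 1.92-fold in 1569652_at.

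ELAVL2, or HuB, is a member of the ELAV family that binds AU-rich RNA and is known mainly from neurons. Probe set 228260_at read 1994 and 311.5, a log2 difference of -2.68, and 208427_s_at read 255.0 and 66.9, at least 3.28-fold lower. MIR31HG, the noncoding host of MIR31, read 65.1 and 64.2 in its single probe set, against floors of 60.8 and 77.7. No fold is given for MIR31HG.

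Of all 23 probe sets, 19 exceeded the floor of the NT-labelled array and 6 that of the FOXM1-labelled array. All 19 had a lower signal on the latter. By the signals as deposited, 16 of them were at least 4-fold lower, as were 7.92% of all named probe sets above the floor of the NT-labelled array. These folds include signals below the floor, which are background. For example, 233197_at of KLHL9 read 105.2 and 1.76, but its bound against the floor is 1.35-fold. The 6 that were above both floors belonged to CDKN2A, KLHL9, FOCAD and ELAVL2, and their log2 differences ran from -4.35 to -2.68. Among 20742 named probe sets above both floors, 2.55% were at least 4-fold lower. A further 13 member probe sets were above the floor of the NT-labelled array and not above that of the other, as were 14.3% of all 24212 named probe sets above the former. The 4 probe sets below both floors belonged to CDKN2A, CDKN2B, MTAP and KLHL9, genes whose brightest probe sets exceeded the floor of the NT-labelled array.

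In the brightest probe sets of the 4 genes above both floors, the FOXM1-labelled array gave 7.42% of the signal of the other array for KLHL9, 9.82% for FOCAD, 12.1% for CDKN2A and 15.6% for ELAVL2. For CDKN2B, MTAP and MLLT3 the dimmer reading is background, and the floor allows up to 22.2%, 12.6% and 12.4% of the signal. How much of their signal was left below those limits was not measured. With bounds counted at the floor, the median log2 difference was -3.01 over the 7 genes and -3.00 over all 8, against 0.01 over all detected genes. In RNA of bulk cultures, fewer cells with these transcripts and less RNA per cell cannot be told apart.

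**Figure D2:**
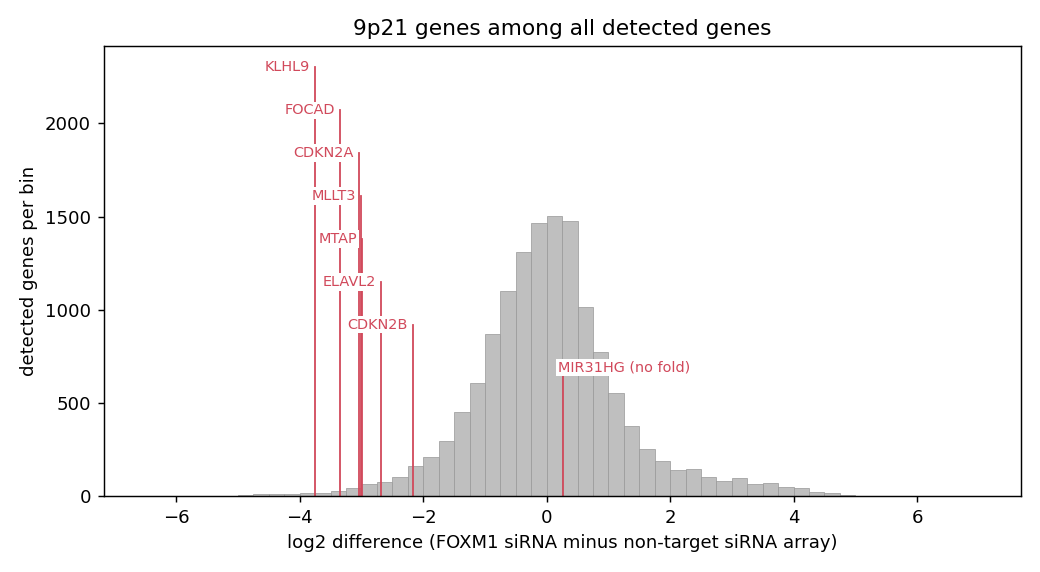
Log2 difference of all 13865 detected genes (grey bars, genes per bin of the log2 difference) with the 8 member genes marked by red lines, whose heights serve only to separate the names. The 7 genes from KLHL9 at -3.75 to CDKN2B at -2.17, where CDKN2B, MTAP and MLLT3 are bounds, lie in the lower tail, and MIR31HG, which has no fold, lies near the middle.

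Set against the olfactory receptor probe sets themselves, the 2 arrays differ in a like manner. On the NT-labelled array, no olfactory receptor probe set read as high as 209644_x_at or 207039_at of CDKN2A, 213233_s_at of KLHL9 or 228260_at of ELAVL2. A single one, at 1726 and 900.0 on the 2 arrays, read above 236313_at of CDKN2B and 231984_at of MTAP. The next brightest on each array read 300.5 and 276.9. On the FOXM1-labelled array, 57 of the 135 read at least as high as 236313_at of CDKN2B and 15 at least as high as 231984_at of MTAP. The same array had only 1 that read above 209644_x_at of CDKN2A, 213233_s_at of KLHL9 or 228260_at of ELAVL2, and 3 that read above 218503_at of FOCAD. Thus CDKN2B and MTAP were within the background on that array. The brightest probe sets of CDKN2A, KLHL9, FOCAD and ELAVL2 read above nearly all of it.

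For the label, these readings point in different directions. The transcripts of CDKN2A, CDKN2B and MTAP on the NT-labelled array go against its label as U87, a line known to lack those genes. On the FOXM1-labelled array, CDKN2B and MTAP were at background, with 231984_at of MTAP at 76.3 just under the floor of 77.7. CDKN2A was above that floor in 209644_x_at, at 420.7, a kind of probe set that can match several transcripts. Its probe set 207039_at read 109.6, and 7 of the 135 olfactory receptor probe sets read at least as high. The last, 211156_at, was below the floor. FOXM1, the target of the siRNA, read 1520 and 1343, a log2 difference of -0.18, with 1 probe set above both floors. The target transcript thus showed no clear loss on the FOXM1-labelled array. This difference is smaller than the probe set SD of 0.50, which does not measure variation between cultures, and gives no check of the labels. An effect of the siRNA and a difference between the cells cannot be told apart with 1 array each.

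The genes next to the locus did not share the difference throughout. In the order of the RefSeq gene table of GRCh38.p14, 26 genes from MLLT3 to ELAVL2 had a probe set, and 10 of them were detected. Apart from the 8 members these were IFNA7, at 39.5 and 89.1, and IFNA17, at 117.2 and 124.9, which are type I interferon genes with closely similar copies. The other 16 genes of the span, among them IFNB1, HACD4, DMRTA1 and the antisense transcripts CDKN2A-AS1 and CDKN2B-AS1, were below background on both arrays and say nothing of a difference. On the side of MLLT3, the nearest detected genes were SLC24A2, at 44.9 and 246.0 and so at least 4.04-fold higher, ACER2, at 129.1 and 73.1, and the ribosomal protein gene RPS6, at 38516 and 30917. On the side of ELAVL2 they were TUSC1, at 2482 and 1323 (log2 difference -0.91), CAAP1, at 3804 and 1014 (-1.91), and PLAA, at 1994 and 1475 (-0.43). SLC24A2 and TUSC1, the immediate detected neighbours, were thus higher and under 2-fold lower.

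Over the wider stretch from JAK2 to PAX5, 103 detected genes were not members. Of these 16 were at least 2-fold lower, or 15.5%, which is close to the 15.4% of all detected genes, and 18, or 17.5%, were at least 2-fold higher, against 16.0% of all. The 2 sides differed in count: 10 of 35 detected genes before MLLT3 were at least 2-fold lower, with a median of -0.73, and 6 of 66 after ELAVL2, with a median of 0.07. At least 4-fold lower were 4 genes in all, each before MLLT3 and named after their values were seen. GLDC, the glycine decarboxylase of mitochondria, read 2332 and 140.5. The lipid droplet gene PLIN2 read 1295 and 124.6, the relaxin gene RLN2 737.1 and 77.9, and SH3GL2, which encodes endophilin A1, 387.9 and 50.1. In the opposite direction, the immune checkpoint ligand gene CD274, also named after its value was seen, read 62.8 and 1535.

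**Figure D3:**
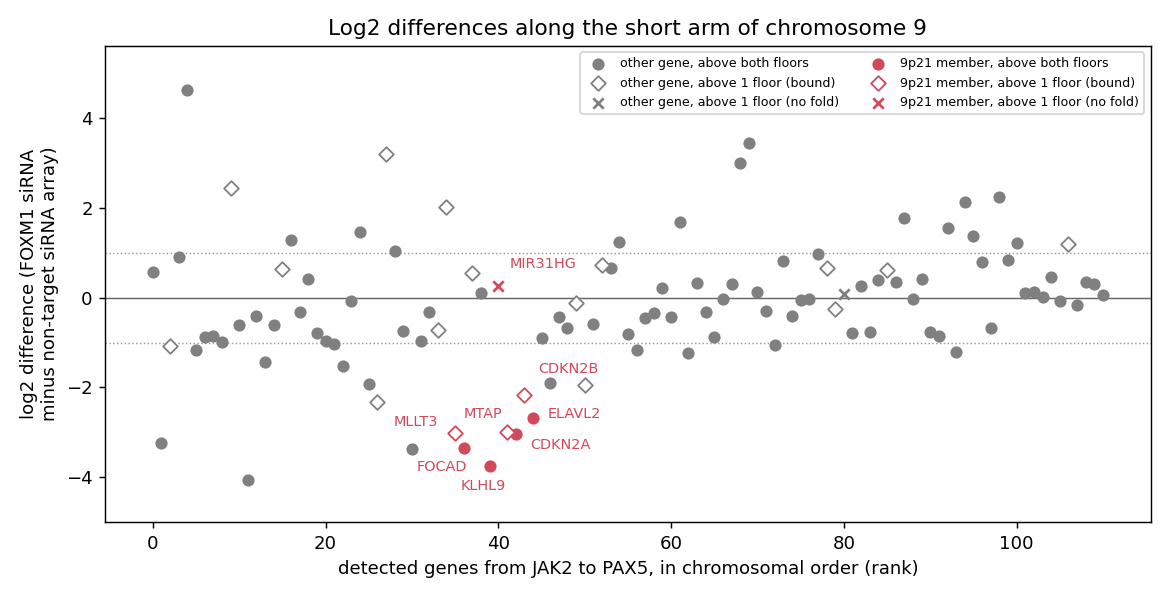
Log2 difference (FOXM1-labelled minus NT-labelled array) of each detected gene from JAK2 to PAX5, in chromosomal order by rank, 1 probe set per gene; filled circles are above both floors, open diamonds are bounds and crosses have no fold. The 7 members from MLLT3 to ELAVL2 lie between -3.75 and -2.17, while SLC24A2 (2.02) and TUSC1 (-0.91) lie on either side.

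Counted as a run of consecutive detected genes at least 2-fold lower, MTAP, CDKN2A, CDKN2B and ELAVL2 made a run of 4. It ended at MIR31HG, which lay near the floor. Over 13851 detected genes placed in order on all chromosomes, 46 of 1585 such runs were at least as long, the longest being 7 genes of the HOXC cluster. At 4-fold, the same 4 genes were matched in length by 1 other run, of the HOXB genes HOXB6 to HOXB9. With a floor 2 times as high, which takes out MIR31HG and both interferon genes, the run became 7 genes from MLLT3 to ELAVL2, and 3 of 1317 runs were at least that long. At 4-fold with that higher floor, which shrinks the bounds of its neighbours, CDKN2A stood alone as a run of 1 among 340 runs. The run thus depends on the floor and on the fold. Because the locus was singled out on these arrays, nothing is read from its length among all runs.

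The 5 genes whose log2 difference was nearest to that of CDKN2A, over these 2 arrays and among genes above both floors, were ASRGL1, PTPRF, COL4A1, RAB4A and SLC2A12, at -3.04, -3.05, -3.04, -3.04 and -3.02. Likeness over 2 arrays amounts to a single difference, and none of the 5 is a member.

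The genes through which the members act are given as lists, drawn up by function with earlier results of these arrays known. Nothing is read from the size of their differences beside that of the members, which were singled out on these arrays. With the hybridisation controls set equal, every log2 difference is 0.30 lower, which turns the medians of the INK4 to RB and ARF to p53 lists to -0.22 and -0.23. Over all detected genes, 15.4% were at least 2-fold lower and 16.0% at least 2-fold higher, the shares to set beside each list count below. Of 13 detected genes of the INK4 to RB pathway, 3 were at least 2-fold higher, 2 were as much lower and 8 lay in between, with a median log2 difference of 0.08. E2F3, an E2F transcription factor that RB restrains, read 4433 and 735.3, or 6.03-fold lower. The D cyclins, which activate the kinases that p16 and p15 block, went different ways: CCND2 was 4.64-fold lower, CCND1 4.35-fold higher and CCND3 2.21-fold higher. CCND2 had a further probe set at 0.40, so that its direction depends on the probe set. The direct partners, named outside the rule because of their role, differed by less than 2-fold, with log2 differences of -0.18 for CDK4, 0.69 for CDK6 and -0.74 for RB1. CDKN2D, which encodes the related inhibitor p19INK4d and is also named outside the rule, read 122.2 and 260.5, or 2.13-fold higher.

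On the ARF side, 9 genes were detected, with 2 of them lower and 1 higher by 2-fold or more and a median of 0.08. MDM2, the ubiquitin ligase of p53 that ARF holds back, was 2.30-fold lower in its brightest probe set, but its 7 probe sets above both floors ran from -1.20 to 1.04. MDM4, its partner, was 2.21-fold lower, with 4 probe sets between -1.15 and -0.81. CDKN1A, which encodes the p53 target p21, read 1316 and 3505, or 2.66-fold higher. TWIST1, known to repress the INK4a and ARF transcripts, differed by 0.68.

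Of 18 genes of methionine salvage, polyamine synthesis and the PRMT5 complex, which binds the methylthioadenosine that MTAP removes, 5 were lower and 1 higher by 2-fold or more, with a median of -0.41. RIOK1, an adaptor of PRMT5, read 3365 and 504.1, or 6.68-fold lower. CLNS1A, the other adaptor, was 3.69-fold lower and PRMT5 itself 2.24-fold lower. MRI1, the isomerase that follows MTAP in the salvage pathway, read 6008 and 1676, or 3.58-fold lower. PRMT5 ran from -1.36 to -0.89 over 3 probe sets.

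Of 5 genes around KLHL9, the adaptor gene KLHL21 was 2.51-fold higher and AURKB, which encodes Aurora B, 2.06-fold lower, while KLHL13 gave -0.80 and CUL3 -0.20. All 9 genes of the SKI and exosome group, which act with FOCAD in RNA decay, differed by less than 2-fold in their brightest probe sets, with a median of -0.36. EXOSC3 gave -0.67, DIS3 -0.60, PELO 0.59 and SKIC8 -0.53. The 5 probe sets of DIS3 above both floors ran from -0.60 to 1.20 and the 4 of SKIC8 from -0.53 to 0.04, so that their directions depend on the probe set. Of 16 genes of the super elongation and DOT1L complexes, in which MLLT3 takes part, 2 were higher and 2 lower by 2-fold or more, and the median was -0.09. ELL2, an elongation factor, read 1516 and 8019, or 5.29-fold higher, and AFF3 was 3.16-fold higher. ELL3 was 2.47-fold and KMT2A 2.19-fold lower, with further probe sets up to -0.79 and -0.28. Among the 8 detected genes of the AU-rich element group, the decay factor genes ZFP36L1 and ZFP36 were 6.55-fold and 3.47-fold higher and none was 2-fold lower. ELAVL1, the ubiquitous relative of ELAVL2, gave -0.63 and TIA1 -0.98, with further probe sets down to -1.16 and -1.70, whereas ELAVL3 and ELAVL4 were below background on both arrays.

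**Figure D4:**
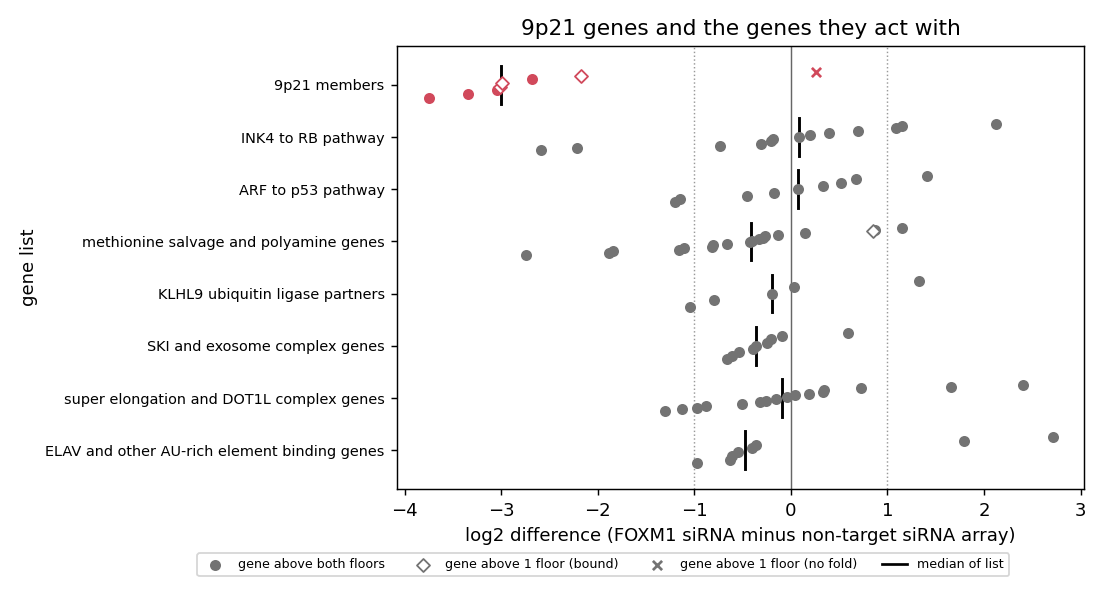
Log2 difference (FOXM1-labelled minus NT-labelled array) of each detected gene of the 9p21 members and of 7 lists of genes they act with; black bars are medians, dotted lines mark 2-fold. The members' median is -3.00, and the medians of the 7 lists run from -0.47 to 0.08. Nothing is read from that gap, because the members were singled out on these arrays.

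Across the 2 arrays, markers of other cell types and RNA quality also moved, and their part in the 9p21 difference was not tested. The marker counts stand beside 15.4% of all detected genes at least 2-fold lower and 16.0% at least 2-fold higher. Of 16 glial and mesenchymal glioma markers, 13 were detected, 6 at least 2-fold higher and 1 lower on the FOXM1-labelled array, with summed signals of 30799 and 122525. TNC was 14.1-fold, CD44 13.2-fold, CHI3L1 9.68-fold and FN1 9.12-fold higher there, whereas the astrocyte filament gene GFAP was below background on both arrays. The 1 lower gene, SOX2, named outside the rule, read 680.4 and 59.2, at least 8.75-fold lower. OLIG2, also named outside the rule, gave -0.02. Of 12 epithelial markers, 7 were detected, 3 at least 2-fold lower and none higher, with summed signals of 15231 and 1538. DSP was 28.9-fold, OCLN 9.29-fold and KRT18 6.99-fold lower, and EPCAM read 48.1 and 98.8. DSP alone made up 9707 of the sum on the NT-labelled array. Of genes named outside the rule, KRT8 gave 0.27 and KRT7 0.46, and CDH1 was at least 1.45-fold lower. KRT19, CLDN3, CLDN4, ESRP1 and GRHL2 were below background on both. Of 11 neuronal markers with a probe set, 4 were detected, and SNAP25 and GAP43 were 18.4-fold and 11.7-fold higher, while TUBB3 gave 0.43 and SYT1 -0.09, with summed signals of 8444 and 13869. The lymphoid and myeloid list had 3 of 7 genes above background, with ITGAM at 44.4 and 96.2 and so at least 1.58-fold higher, CD79A at 0.19, CSF1R at 0.10 and summed signals of 414.8 and 446.9. The endothelial list had 3 of 7 above background, with KDR at least 2.41-fold higher, VWF at least 1.96-fold higher, PECAM1 at 0.85 and summed signals of 189.0 and 548.8. As a sign of RNA integrity, the signal at the 3′ end over that at the 5′ end came to 6.79 and 4.21 for ACTB and to 1.26 and 1.09 for GAPDH, in the order NT-labelled and FOXM1-labelled.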

How the data were processed

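The deposited values are linear signal intensities of 54675 probe sets on 2 arrays, made by the authors with MAS5 per the submitters' processing notes, whose version and settings no source used here gives. Both arrays had the same mean of 500.1 once the outer 2% on either side were left out, so each had been scaled as a whole. Per the labels' protocols, RNA was labelled with a 3′ IVT kit, which reports mainly the 3′ ends of transcripts.

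Probe sets took their symbol from the platform annotation (41097 with 1 symbol), updated through the gene ID for 99.9%. Signals were raised to the floor before log2, and the probe set brightest over both arrays (mean log2 signal) stood for its gene. Probe sets ending in _x_at or _s_at can match several transcripts. No test was possible with 1 array per group, and the number of arrays limits the precision. The members, the gene lists and the choices above were made with earlier results of these data known. Named genes were the members, FOXM1, up to 4 genes per list with the largest differences, the 5 genes nearest to CDKN2A, and genes beside the locus; others are said to be named otherwise. Calculations were tested on simulated data and used Python 3.11.15, numpy 2.4.6, pandas 2.3.3 and statsmodels 0.14.6. Alternatives changed the scaling, the floor, the probe set rule, the pseudocount and the fold threshold.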

Additional observations from a re-analysis of the deposited data

How the results depend on the processing

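The member values, their median and count, and the count of genes beside the locus were recomputed under up to 13 alternatives, and the 7 lower genes kept their direction. The other comparisons were not recomputed there, apart from the runs and the list medians given above. Over 77 combinations of the 7 lower genes with an alternative, 75 log2 differences were at or below -1 and 72 at or below -2. The 2 exceptions to 2-fold were CDKN2B at -0.91 with the median over probe sets, which averages in a probe set below both floors, and MLLT3 at -0.94 without _x_at and _s_at probe sets, which leaves only its dimmest probe set. With the median over probe sets CDKN2A was at -4.35, FOCAD at -1.51, KLHL9 at -2.14, MLLT3 at -2.49, MTAP at -2.14 and the median of the members at -2.14. Without _x_at and _s_at probe sets CDKN2A was also at -4.35. A floor 2 times as high, which shrinks every bound by construction, gave CDKN2B -1.17, MLLT3 -2.01 and MTAP -1.99. No floor, or a floor at the 50th percentile of the olfactory receptor probe sets, gave CDKN2B -3.46. With log2(signal + 50), MLLT3 was at -2.46, MTAP at -2.41 and the median of the members at -2.48. Setting the 18 hybridisation controls equal moved the median of all detected genes from 0.01 to -0.29, and 31 of the non-member genes from JAK2 to PAX5 were then at least 2-fold lower, against 16, while 23.1% of all detected genes were. That count was 36 at 1.5-fold and 4 at 4-fold. MIR31HG, which has no called fold, changed sign between -0.05 and 0.26 and had no value with a floor 2 times as high or a common floor. No paired analysis was possible because each condition has 1 array. Signal over background limits CDKN2B, MTAP and MLLT3, whose values on the array labelled FOXM1 siRNA are background.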
